A study of Homo sapiens with 3 samples.

Results

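The 35 genes described here encode the spindle checkpoint, the mitotic kinases and the proteins that build the spindle, separate the chromosomes and divide the cell. They were chosen by name, with earlier results of these data known. All 35 were found among the 25247 named symbols of the deposited tables, each in a single row. The row of BUB1B is shared with the neighbouring gene PAK6, so its value cannot be assigned to BUB1B alone. The cells were OCI-AML2 R50, a culture of OCI-AML2, an established cell line of acute myeloid leukaemia (AML). Both groups were grown in medium with 15% fetal bovine serum and 50 µM Ara-C (cytarabine, a nucleoside analogue that blocks DNA synthesis). The 2 romidepsin libraries came from cells given romidepsin, an inhibitor of class I histone deacetylases, for 18 h. They were compared with 1 control library of the same line without it. The sources used here do not give the romidepsin dose, the meaning of R50 or whether the romidepsin libraries came from separate cultures, and the spread between them may be technical. Since the control was 1 library, culture-to-culture differences and the effect of romidepsin cannot be told apart.

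The spindle checkpoint delays anaphase until every kinetochore, the protein platform on the centromere, is attached to spindle microtubules. Unattached kinetochores recruit MAD1 and MAD2, and MAD2 with BUBR1 and BUB3 then holds CDC20, the activator of the anaphase-promoting complex (APC/C), a ubiquitin ligase. Once CDC20 is released, the APC/C marks securin and cyclin B for destruction, and separase cuts cohesin. The transcripts of most of these genes accumulate in G2 and M phase, under the DREAM and MuvB complexes, which bind a promoter element called the cell cycle genes homology region (CHR), and under B-MYB and FOXM1. In bulk RNA, fewer cells in a phase of the cycle and less RNA per cell cannot be told apart.

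Promoters are shown for the 3 genes with the largest rise (ANLN, TOP2A, MKI67) and the 3 with the largest fall (MAD1L1, MAD2L1, PLK4), since these mark the ends of the range described below. The sequences are from RefSeq on GRCh38.p14, a different build from that of the expression tables, and run 5′ to 3′ on the gene's strand from 250 bases before to 50 bases after the annotated start. Capitals mark matches on either strand to the CHR letters TTTGAA or TTCGAA, to CCAAT and to TATAAA.
ANLN (chr7:36389612-36389911, plus strand): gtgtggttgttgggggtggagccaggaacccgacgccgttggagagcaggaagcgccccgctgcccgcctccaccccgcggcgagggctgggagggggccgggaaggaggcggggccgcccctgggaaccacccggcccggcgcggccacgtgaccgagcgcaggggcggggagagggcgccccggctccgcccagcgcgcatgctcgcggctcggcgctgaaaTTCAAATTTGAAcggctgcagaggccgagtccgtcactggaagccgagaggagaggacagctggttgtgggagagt
TOP2A (chr17:40417847-40418146, minus strand): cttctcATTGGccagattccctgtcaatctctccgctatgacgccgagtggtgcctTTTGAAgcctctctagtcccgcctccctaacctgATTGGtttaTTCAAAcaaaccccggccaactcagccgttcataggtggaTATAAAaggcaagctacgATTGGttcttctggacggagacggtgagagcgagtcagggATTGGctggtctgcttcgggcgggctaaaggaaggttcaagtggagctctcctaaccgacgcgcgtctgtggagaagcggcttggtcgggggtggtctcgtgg
MKI67 (chr10:128126374-128126673, minus strand): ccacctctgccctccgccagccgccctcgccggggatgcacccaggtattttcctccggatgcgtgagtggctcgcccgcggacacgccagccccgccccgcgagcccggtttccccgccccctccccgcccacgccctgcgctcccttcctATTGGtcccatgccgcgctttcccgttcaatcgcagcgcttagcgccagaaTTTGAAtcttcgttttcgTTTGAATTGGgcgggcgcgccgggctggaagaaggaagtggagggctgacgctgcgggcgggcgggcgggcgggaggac
MAD1L1 (chr7:2232896-2233195, minus strand): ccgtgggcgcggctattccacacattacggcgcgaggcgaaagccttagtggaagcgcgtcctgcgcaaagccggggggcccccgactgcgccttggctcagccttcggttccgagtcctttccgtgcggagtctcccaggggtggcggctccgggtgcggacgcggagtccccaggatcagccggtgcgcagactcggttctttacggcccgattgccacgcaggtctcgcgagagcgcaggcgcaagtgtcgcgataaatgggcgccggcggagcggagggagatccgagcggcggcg
MAD2L1 (chr4:120066799-120067098, minus strand): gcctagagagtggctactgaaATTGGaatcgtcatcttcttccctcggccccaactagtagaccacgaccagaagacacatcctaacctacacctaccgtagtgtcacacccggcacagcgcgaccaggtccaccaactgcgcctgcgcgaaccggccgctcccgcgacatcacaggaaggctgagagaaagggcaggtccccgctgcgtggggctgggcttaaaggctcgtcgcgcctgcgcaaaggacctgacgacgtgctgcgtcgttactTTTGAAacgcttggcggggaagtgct
PLK4 (chr4:127880643-127880942, plus strand): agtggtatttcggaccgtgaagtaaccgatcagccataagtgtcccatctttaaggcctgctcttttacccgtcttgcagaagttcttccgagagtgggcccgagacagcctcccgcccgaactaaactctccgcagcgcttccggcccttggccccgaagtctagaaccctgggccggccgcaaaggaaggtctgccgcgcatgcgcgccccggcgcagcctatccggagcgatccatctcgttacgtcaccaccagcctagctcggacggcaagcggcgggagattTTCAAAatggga
The ANLN window held a pair of adjoining CHR matches on opposite strands, at positions -26 and -20 from the start. TOP2A held 2 CHR and 4 CCAAT matches and a TATAAA. MKI67 held CHR matches at -47 and -29, the second of which shares a base with a CCAAT match at -24. MAD2L1 held its CHR match at 24, after the start, and a CCAAT at -229. PLK4 held a single CHR match, at 38, and MAD1L1 held no match to any of these letters.

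Windows were found for 28 of the 35 genes, the others being AURKA, BIRC5, BUB3, FOXM1, RACGAP1, TPX2 and TTK. A CHR match lay in 21 of the 28 windows (75%), against 11.5% of the 9208 windows of genes tested for expression and 16.4% of all 35116 windows of this length. A CCAAT lay in 19 (67.9%), against 37.2% of the tested genes and 34.6% of all windows, and 14 windows (50.0%) held more than 1 CCAAT, against 13.9%. Both motifs stood in 16 windows (57.1%, against 5.0% of tested genes), while TATAAA stood in 3 (10.7%, against 5.48% of tested genes and 11.5% of all windows). Of the 21 genes with a CHR match, 17 had one within 60 bases of the start. By the limma calls on the deposited values, described below, CHR matches were in 8 of 12 windows of genes called higher after romidepsin, in 4 of 5 of those called lower and in 9 of 11 of those not called. CCAAT matches were in 8 of 12, 2 of 5 and 9 of 11 of these windows, and no difference between these small groups was tested. A match is a string of letters and was not tested for binding.

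**Figure D1:**
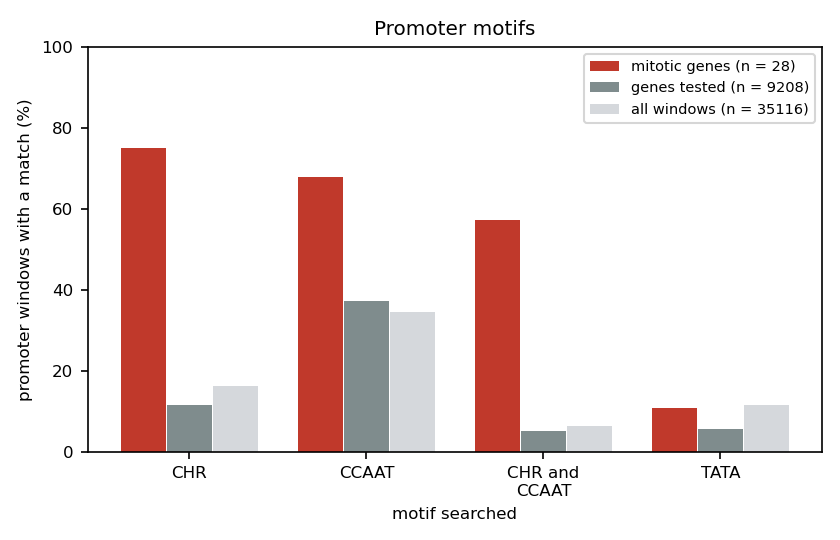
Share of promoter windows (y axis, percent) that hold each motif searched (x axis) for the mitotic genes, for the genes tested for expression and for all windows. A CHR match lay in 75% of the mitotic gene windows, against 11.5% of the tested genes.

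All 35 genes were expressed at 1 FPKM or more in each library. FPKM, the deposited unit, is the number of fragments relative to transcript length and library size. The values ran between 8.93 and 171 FPKM and between 8.49 and 173 FPKM in the romidepsin libraries, and between 6.29 and 165 FPKM in the control. The medians over the genes were 37.1 and 37.1 FPKM after romidepsin and 33.1 FPKM in the control. Summed over the genes they came to 1687 and 1682 FPKM after romidepsin and 1607 FPKM in the control. This was 0.324% and 0.325% of the FPKM of all named genes after romidepsin, and 0.262% in the control. The leading transcript after romidepsin was PTTG1, followed by TOP2A and MAD2L1, whereas in the control it was MAD2L1, followed by PTTG1 and BUB3.

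**Figure D2:**
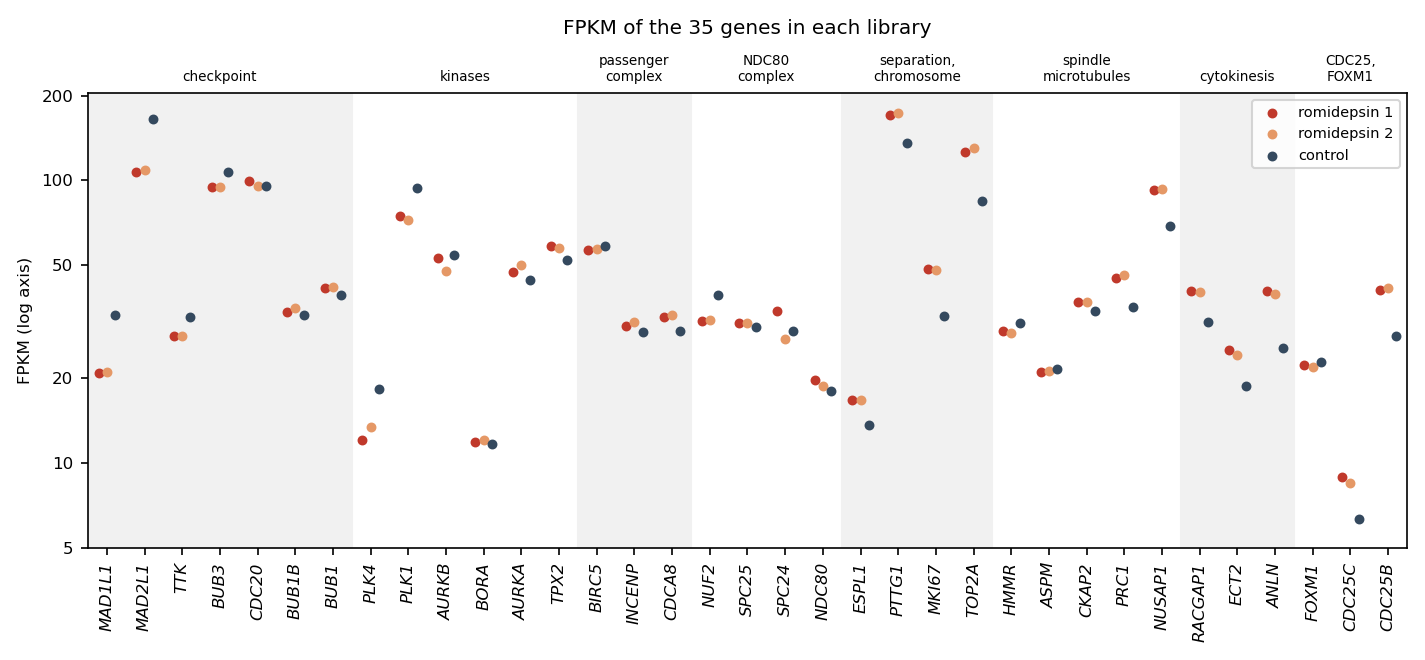
FPKM (y axis, log scale) of each of the 35 genes (x axis, by role) in romidepsin libraries 1 and 2 and the control library, 1 point a library. The control point lies above both romidepsin points for MAD1L1, MAD2L1, PLK4 and PLK1, and below both for TOP2A, MKI67, ANLN and CDC25B.

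Differences are given as romidepsin minus control of log2(FPKM + 1), with the standard error of limma, a linear model fitted over all 11708 genes with at least 1 FPKM in 1 library. Fold values are ratios of mean FPKM. Of the 35 genes, 15 rose and 7 fell at an adjusted p under 0.05, and 13 were not called. Over all genes tested, 34.7% were called higher and 41.8% lower, 76.5% in all, so a call alone says little. As deposited, the 62.9% of these genes that were called is below that background. This did not hold with scaling to the same sum. That setting called 26 of the 35 higher and 4 lower, against 5707 and 3061 of all genes tested. As deposited, the differences were also smaller, with a median size of 0.17 against 0.39 over all genes tested. With scaling to the same sum the median difference of the 35 genes was 0.32, and sizes were not compared with those of all genes. None of the 35 was 2-fold apart in both libraries. At least 1.5-fold in both libraries, ANLN was higher and MAD1L1 and MAD2L1 were lower, which is 8.57% of the genes, against 28.7% of all genes (15.6% higher, 13.1% lower). MAD1L1 and MAD2L1 no longer reached 1.5-fold with scaling to the same sum (-0.42 and -0.37) or with quantile normalization (-0.54 and -0.34), and the 6 genes that did under each were all higher. Both romidepsin values lay above the control in 22 of the genes and below it in 12, and SPC24 had the control between them. The background of this measure is 43.8% above and 51.4% below, 95.2% in all. Against a difference of 1.2-fold rather than 0, limma's treat test called 5 of the genes higher and 3 lower (22.9%), against 21.7% higher and 24.5% lower over all genes (46.3%).

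The direction of small differences depended on how the libraries were scaled. The summed FPKM of all rows was 668773 and 657213 after romidepsin and 790922 in the control. When the libraries were scaled to equal sums over named genes, the median of all genes moved to 0.16 from -0.05 as deposited. Of the 35 genes, 26 were then called higher and 4 lower instead of 15 and 7. The calls over all genes tested moved as well, to 5707 higher and 3061 lower from 4057 and 4896. The scaling added between 0.21 and 0.24 to the log2 difference of each of these genes. Relative to the median of all genes, the median of the 35 genes was 0.13 higher as deposited and 0.15 higher with that scaling, but 0.08 higher with no filter on low genes, 0.20 with a mean of at least 5 FPKM and 0.26 with quantile normalization. Libraries differed little within the romidepsin pair, whose median gap over these genes was 0.03 on the log2 scale, against 0.05 over all genes tested. The most frequent ratio of low values, control over romidepsin, was 1.17 for each romidepsin library. Read as depth alone, it would place the control at 0.851 and 0.853 times the romidepsin libraries. The summed FPKM was also larger in the control, so depth and a scale factor of the deposited values cannot be told apart here. Neither was tested. The absolute depth is unknown, so no counting error is given.

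**Figure D3:**
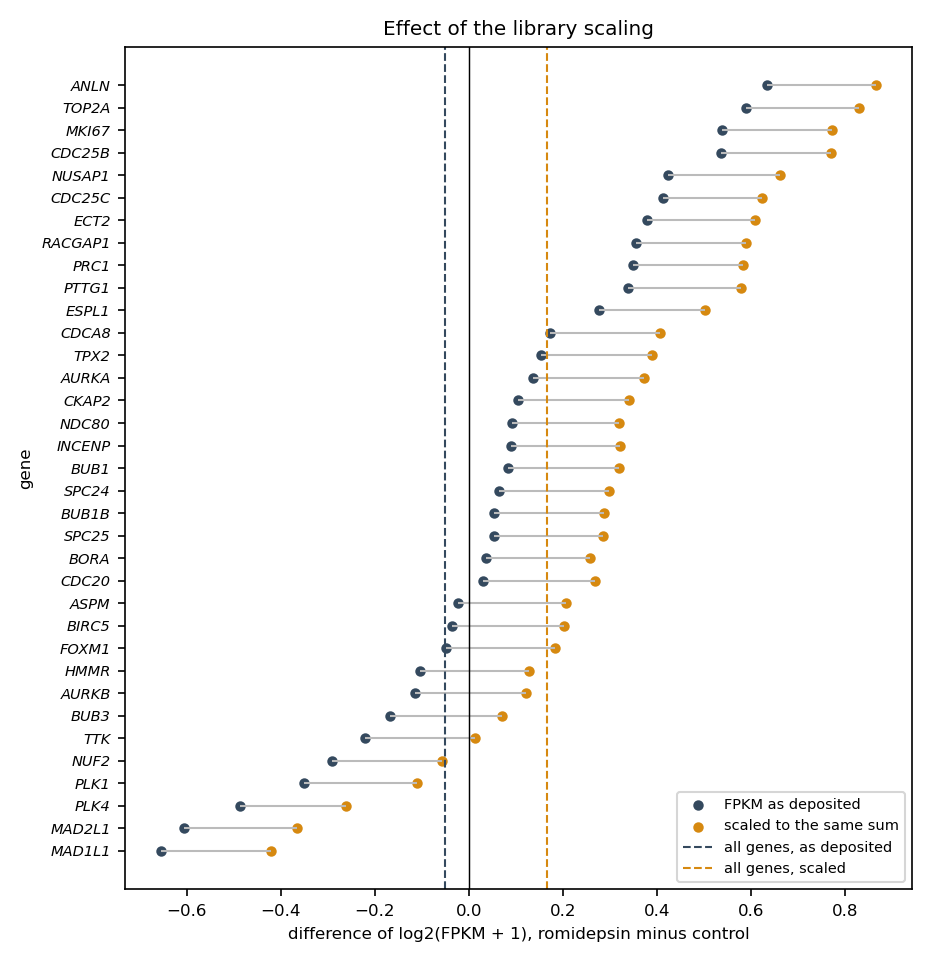
Difference of log2(FPKM + 1), romidepsin minus control (x axis), of each gene (y axis) as deposited and with the libraries scaled to the same sum; dashed lines give the median of all genes under each. The scaling moves every gene to the right, and BUB3, TTK, AURKB, HMMR, FOXM1, BIRC5 and ASPM cross 0.

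Of the 7 myeloid markers, 3 were called higher (ANPEP, PTPRC and CEBPA) and 4 lower (LYZ, MPO, SPI1 and CD33), CD33 not with scaling to the same sum. LYZ was at 2630 and 2596 FPKM after romidepsin and 4258 FPKM in the control, MPO at 444 and 433 FPKM after romidepsin and 751 FPKM in the control, and ANPEP at 5.40 and 5.24 FPKM after romidepsin and 0.654 FPKM in the control. The 4 T cell markers summed to 1.04 and 1.01 FPKM after romidepsin and 0.216 FPKM in the control, and the 4 B cell markers to 8.53 and 9.41 FPKM after romidepsin and 7.07 FPKM in the control, with MS4A1 at 0 throughout. The 4 erythroid and 4 epithelial markers stayed under 0.1 FPKM in sum in each library. Of the 4 fibroblast markers, COL1A1 and DCN rose and COL1A2 and COL3A1 were listed at 0, with sums of 3.79 and 3.79 FPKM after romidepsin and 0.0525 FPKM in the control. Their part in the mitotic differences was not tested.

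Among the checkpoint genes, 4 of 7 fell and none rose as deposited, and the falls were unequal. The background is 41.8% called lower and 34.7% called higher. Once the libraries had equal sums, 3 checkpoint genes were called higher and 2 lower, so the lack of rises depended on the scaling. MAD2L1, which encodes the MAD2 protein that captures CDC20, had 107 and 109 FPKM in the romidepsin libraries and 165 FPKM in the control. Both romidepsin values lay far below the control, a 1.53-fold difference that was the largest in FPKM among the 35 genes (log2 difference -0.61, SE 0.03, adjusted p = 4.25e-06). MAD1L1, which encodes the MAD1 anchor that holds MAD2 at kinetochores, had 20.8 and 20.9 FPKM after romidepsin and 33.4 FPKM in the control (-0.65, SE 0.04, adjusted p = 9.94e-06). It was 1.60-fold lower, and the romidepsin pair differed by only 0.01 on the log2 scale.

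TTK encodes MPS1, the kinase that starts checkpoint signalling, and had 28.1 and 28.1 FPKM after romidepsin and 32.9 FPKM in the control. BUB3, the adaptor that brings BUB1 and BUBR1 to kinetochores, had 95.1 and 95.1 FPKM after romidepsin and 107 FPKM in the control. Their falls of 0.22 and 0.17 on the log2 scale passed the test as deposited, but with scaling to the same sum both differences were slightly above 0 and neither was called, and BUB3 was called higher with quantile normalization. BUB1, a checkpoint kinase that marks centromeric chromatin, had 41.6 and 42.0 FPKM after romidepsin and 39.4 FPKM in the control (0.08, SE 0.04, adjusted p = 0.0951). The joint row of BUB1B and PAK6 had 34.2 and 35.2 FPKM after romidepsin and 33.4 FPKM in the control (adjusted p = 0.294). CDC20, which the checkpoint restrains, had 99.6 and 95.7 FPKM after romidepsin and 95.6 FPKM in the control, with the lower romidepsin value next to the control (0.03, SE 0.04, adjusted p = 0.507). These 3 rows were not called as deposited but were called higher with quantile normalization and with scaling to the same sum.

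**Figure D4:**
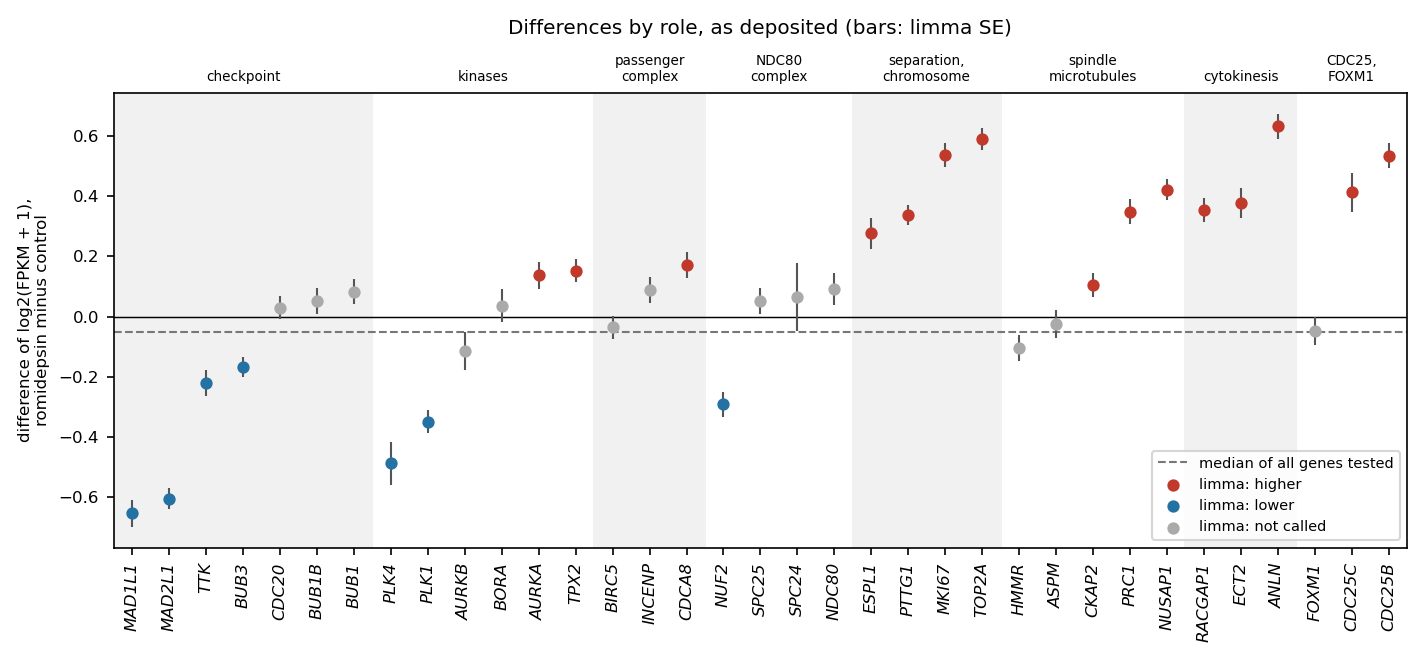
Difference of log2(FPKM + 1), romidepsin minus control (y axis; bars, limma SE), for the 35 genes (x axis, by role), as deposited; the dashed line is the median of all genes tested. The genes listed under the checkpoint run between -0.65 and 0.08, and those listed under cytokinesis between 0.35 and 0.63.

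Both Polo-like kinases fell, while of the Aurora kinases AURKA was called slightly higher and AURKB was not called. PLK4, the kinase that starts centriole duplication, had 12.0 and 13.4 FPKM after romidepsin and 18.2 FPKM in the control, a 1.43-fold difference (-0.49, SE 0.07, adjusted p = 0.000509). PLK1, which drives mitotic entry, centrosome maturation and cytokinesis, had 74.7 and 72.7 FPKM after romidepsin and 94.2 FPKM in the control, 1.28-fold lower (-0.35, SE 0.04, adjusted p = 9.98e-05). In both genes the romidepsin values lay below the control, and both were still called lower with scaling to the same sum, by smaller differences of -0.26 for PLK4 and -0.11 for PLK1, though neither was called with no filter on low genes.

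AURKA, the kinase of spindle poles, had 47.6 and 50.1 FPKM after romidepsin and 44.3 FPKM in the control (0.14, SE 0.05, adjusted p = 0.0269). TPX2, which binds and activates Aurora A on spindle microtubules, had 58.6 and 57.6 FPKM after romidepsin and 52.2 FPKM in the control (0.15, SE 0.04, adjusted p = 0.00817). Both rises were about 1.1-fold, and both calls were lost with no filter and in limma without a mean-variance trend. BORA, which helps Aurora A to activate PLK1, had 11.8 and 12.0 FPKM after romidepsin and 11.6 FPKM in the control and was not called (adjusted p = 0.574), though it was called higher with scaling to the same sum. AURKB, the kinase of the chromosomal passenger complex, had 53.2 and 47.7 FPKM after romidepsin and 54.6 FPKM in the control. Its romidepsin libraries differed by 0.16 on the log2 scale, more than the 0.12 by which their mean lay below the control, and it was not called (adjusted p = 0.135). Its difference lay above 0 with scaling to the same sum, again without a call.

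The partners of AURKB in the passenger complex, which corrects faulty microtubule attachments, changed little as deposited. CDCA8, which encodes borealin, had 32.7 and 33.4 FPKM after romidepsin and 29.2 FPKM in the control (0.17, SE 0.04, adjusted p = 0.00789), a call lost with no filter. INCENP, the scaffold of the complex, had 30.5 and 31.5 FPKM after romidepsin and 29.1 FPKM in the control. BIRC5, which encodes survivin, had 56.7 and 57.3 FPKM after romidepsin and 58.5 FPKM in the control (-0.04, SE 0.04, adjusted p = 0.407). Neither INCENP nor BIRC5 was called as deposited. With scaling to the same sum all 3 partners were called higher, against 5707 of all 11708 genes tested. Their differences were then 0.41 for CDCA8, 0.32 for INCENP and 0.20 for BIRC5, whose sign turned.

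The NDC80 complex is the rod that couples kinetochores to microtubules. As deposited, 1 of its 4 subunit genes was called, against 76.5% of all genes tested. NUF2 had 31.9 and 32.1 FPKM after romidepsin and 39.4 FPKM in the control, 1.23-fold lower with the romidepsin pair nearly equal (-0.29, SE 0.04, adjusted p = 0.000444). This call was lost with scaling to the same sum, which called NDC80 and SPC25 higher, so that the complex then had 2 genes higher and none lower. Its dimer partner NDC80 had 19.6 and 18.6 FPKM after romidepsin and 17.9 FPKM in the control (adjusted p = 0.152). SPC25 had 31.3 and 31.3 FPKM after romidepsin and 30.1 FPKM in the control (adjusted p = 0.290). SPC24 had 34.5 and 27.4 FPKM after romidepsin and 29.4 FPKM in the control, the widest romidepsin gap of the 35 genes at 0.32 on the log2 scale, so no direction can be read for it.

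The 4 genes of chromosome structure and sister separation all rose, against 34.7% of all genes tested that were called higher. TOP2A, the topoisomerase that untangles sister chromatids, had 126 and 130 FPKM after romidepsin and 84.7 FPKM in the control. Both romidepsin values stood well above the control, a 1.51-fold difference (0.59, SE 0.04, adjusted p = 6.68e-06), although romidepsin library 1 alone was just short of 1.5-fold on the log2(FPKM + 1) scale. MKI67, which encodes the proliferation marker Ki-67 of the mitotic chromosome surface, had 48.7 and 48.3 FPKM after romidepsin and 33.1 FPKM in the control, 1.47-fold higher (0.54, SE 0.04, adjusted p = 1.45e-05). PTTG1, which encodes securin, the inhibitor of separase, had 171 and 173 FPKM after romidepsin and 136 FPKM in the control (0.34, SE 0.03, adjusted p = 6.32e-05). ESPL1, which encodes separase itself, had 16.7 and 16.7 FPKM after romidepsin and 13.6 FPKM in the control (0.28, SE 0.05, adjusted p = 0.00164). Inhibitor and protease transcripts were thus 1.27-fold and 1.23-fold higher. All 4 were also called higher with scaling to the same sum.

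Genes of spindle microtubule proteins were split between risers and genes without a call. NUSAP1, which bundles microtubules near chromosomes, had 92.3 and 93.7 FPKM after romidepsin and 69.1 FPKM in the control (0.42, SE 0.04, adjusted p = 2.88e-05). PRC1, which crosslinks the antiparallel microtubules of the central spindle, had 45.0 and 46.1 FPKM after romidepsin and 35.6 FPKM in the control (0.35, SE 0.04, adjusted p = 0.000165), a call lost with no filter. CKAP2, a microtubule-associated protein of the spindle, had 37.1 and 37.1 FPKM after romidepsin and 34.4 FPKM in the control, a 1.08-fold difference just past the threshold (adjusted p = 0.0479) that was lost in limma without a trend. HMMR, a spindle assembly factor that also binds hyaluronan, had 29.4 and 28.8 FPKM after romidepsin and 31.4 FPKM in the control (adjusted p = 0.0593). ASPM, which focuses microtubules at spindle poles, had 20.9 and 21.2 FPKM after romidepsin and 21.4 FPKM in the control (adjusted p = 0.663). Neither of these was called as deposited, and with scaling to the same sum both were called higher.

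All 3 genes listed under cytokinesis rose, against 34.7% of all genes tested that were called higher. PLK1, which also acts in cytokinesis, was listed with the kinases and fell (-0.35). ANLN, which encodes anillin, the scaffold of the contractile ring, had 40.6 and 39.7 FPKM after romidepsin and 25.6 FPKM in the control, the largest rise of the 35 genes at 1.57-fold (0.63, SE 0.04, adjusted p = 9.33e-06). ECT2, the exchange factor that activates RhoA at the division plane, had 25.1 and 24.1 FPKM after romidepsin and 18.7 FPKM in the control (0.38, SE 0.05, adjusted p = 0.000272), a call lost with no filter. RACGAP1, the centralspindlin subunit that recruits ECT2, had 40.7 and 40.2 FPKM after romidepsin and 31.4 FPKM in the control (0.35, SE 0.04, adjusted p = 0.000148). In each of the 3 the control lay below both romidepsin libraries.

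CDC25B and CDC25C encode phosphatases that activate CDK1 for mitotic entry, and both rose. CDC25B had 41.0 and 41.7 FPKM after romidepsin and 28.2 FPKM in the control, 1.46-fold higher (0.53, SE 0.04, adjusted p = 1.87e-05). CDC25C, the lowest transcript of the 35 genes, had 8.93 and 8.49 FPKM after romidepsin and 6.29 FPKM in the control (0.41, SE 0.07, adjusted p = 0.000816), a call lost with no filter. FOXM1, the transcription factor that activates many G2 and M phase genes, had 22.2 and 21.8 FPKM after romidepsin and 22.8 FPKM in the control. Its difference of -0.05 (SE 0.05) was not called (adjusted p = 0.372), and it was called higher with scaling to the same sum.

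Other genes of the mitotic pathway were read from lists of their own, whose medians stand beside 0.08 for the 35 genes and -0.05 for all genes tested. Their counts of rises and falls stand beside 34.7% of all genes tested called higher and 41.8% called lower. Of 8 condensin genes, which compact mitotic chromosomes, 5 rose and 2 fell (median 0.11), with NCAPD3, a condensin II subunit, at 42.6 and 42.0 FPKM after romidepsin and 34.4 FPKM in the control, and SMC2, a core ATPase of both condensins, at 24.2 and 24.9 FPKM after romidepsin and 29.7 FPKM in the control. Of 11 rows of MIS12, KNL1 and RZZ kinetochore genes, 3 rose and 4 fell (median -0.04). CASC5, which encodes KNL1, the docking platform of BUB1 and BUBR1, had 8.65 and 8.45 FPKM after romidepsin and 6.47 FPKM in the control. The largest fall was that of a row joining PMF1 with BGLAP, at 12.9 and 12.0 FPKM after romidepsin and 33.4 FPKM in the control, which cannot be assigned to PMF1 alone. Of 13 rows of cohesin and its regulators, 2 rose and 7 fell (median -0.10). ESCO2, a cohesin acetyltransferase, had 23.1 and 23.5 FPKM after romidepsin and 15.4 FPKM in the control, and the cohesin subunit gene STAG2 had 18.4 and 18.9 FPKM after romidepsin and 30.1 FPKM in the control.

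Of 18 genes of the APC/C, its E2 enzymes and regulators, 12 fell and 3 rose (median -0.26). ANAPC13, a small APC/C subunit, had 19.98 and 20.2 FPKM after romidepsin and 41.6 FPKM in the control, while UBE2S, the E2 that extends ubiquitin chains on APC/C substrates, had 135 and 126 FPKM after romidepsin and 75.4 FPKM in the control. Of 10 genes of mitotic cyclins and CDK1 control, 4 rose and 6 fell (median -0.13). GTSE1, a G2 and S phase protein, had 27.3 and 25.1 FPKM after romidepsin and 21.8 FPKM in the control, whereas CDC25A, the CDC25 phosphatase of S phase entry, had 15.9 and 16.2 FPKM after romidepsin and 27.3 FPKM in the control. It was thus lower where CDC25B and CDC25C were higher.

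Of the 12 DREAM and MuvB factor genes, 9 fell and 3 rose (median -0.35). E2F5, a repressor E2F of DREAM, had 3.44 and 3.93 FPKM after romidepsin and 8.83 FPKM in the control, and the MuvB subunit gene LIN54 had 8.35 and 8.74 FPKM after romidepsin and 6.36 FPKM in the control. Of 18 G1/S genes, 14 fell and 4 rose (median -0.42), with the uracil glycosylase gene UNG at 32.4 and 31.2 FPKM after romidepsin and 91.7 FPKM in the control, and RRM2, a subunit of ribonucleotide reductase, at 106 and 103 FPKM after romidepsin and 83.6 FPKM in the control. The named genes of these 7 lists all passed the test as deposited, and SMC2 was not called lower with scaling to the same sum. With scaling to the same sum, the counts of higher and lower calls were 5 and 0 for condensin, 7 and 2 for the kinetochore genes, 5 and 2 for cohesin, 6 and 7 for the APC/C, 5 and 3 for the cyclins, 3 and 6 for the DREAM factors and 5 and 11 for the G1/S genes. Over all 11708 genes tested as deposited, they were 5707 and 3061. Differences between lists were not tested. CHR matches were in 5 of 7 windows of condensin, 5 of 8 of the cyclins and CDK1 control and 4 of 11 of cohesin. They were in 3 of 9 of the kinetochore genes, 2 of 11 of the DREAM factors, 3 of 17 of the APC/C and 1 of 15 of the G1/S genes. The share was 11.5% of the windows of genes tested.

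**Figure D5:**
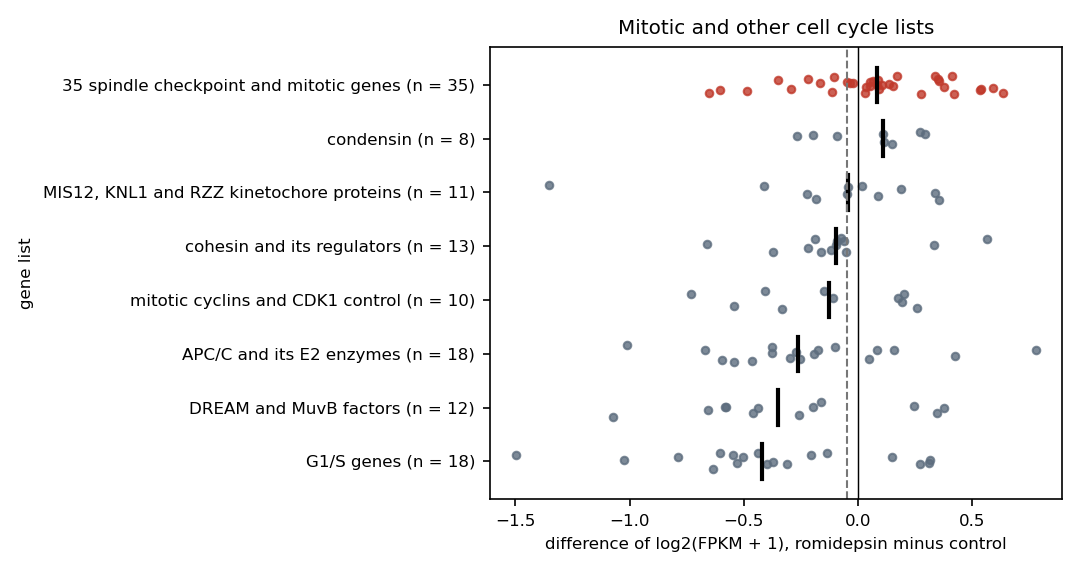
Difference of log2(FPKM + 1), romidepsin minus control (x axis), for each tested row (points) of the 35 genes and 7 other cell cycle lists (y axis), with the list median as a black bar and the median of all genes as a dashed line. List medians run between 0.11 for condensin and -0.42 for the G1/S genes.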

How the data were processed

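RNA sequencing of 3 libraries of OCI-AML2 R50 cells was read, 2 after romidepsin and 1 control. The authors deposited 1 FPKM table of 28837 rows a library, per the file headers. The submitters' processing notes list hg19, TopHat, Cufflinks and Cuffdiff, with versions and annotation not given in the sources used here. Left out were 1770 rows without a name (21.1% to 22.3% of the FPKM) and 27 named by a number, and rows of 1 symbol were summed. Genes with at least 1 FPKM in 1 library (11708) were tested on log2(FPKM + 1), a scale that understates changes of low genes, with limma 3.58.1 in R 4.3.3 (mean-variance trend, Benjamini-Hochberg adjustment, threshold 0.05). The romidepsin pair gave the fit its 1 residual degree of freedom, beside 6.06 prior ones, and the spread of the lone control was taken to equal that of the pair. The fit was also run on simulated data with the same noise in all 3 libraries, which could not test that assumption. The ratios of low values were read from rows under 0.3 FPKM. Promoter motifs were searched in RefSeq windows on both strands. The 35 genes and the lists were chosen with earlier results of these data known. Named in full were all 35 genes, and in each pathway list the largest rise and fall. Alternatives were a pseudocount of 0.1, no filter, a mean of at least 5 FPKM, scaling to the same sum, quantile normalization, symbols in 1 row naming 1 gene, limma without trend, leaving out each romidepsin library, and, added after the data were seen, limma's treat test at 1.2-fold. Python 3.11.15, numpy 2.4.6, pandas 2.3.3 and matplotlib 3.10.9 were used.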

Additional observations from a re-analysis of the deposited data

How the results depend on the processing

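With scaling to the same sum, 26 of the genes were called higher and 4 lower, against 5707 and 3061 of all genes tested. In that setting 6 genes were 1.5-fold apart in both libraries and the median was 0.32. The share of all genes 1.5-fold apart is given only as deposited. The differences of BUB3 (0.071), TTK (0.012), HMMR (0.13), BIRC5 (0.20), FOXM1 (0.18), ASPM (0.21) and, with no call under either, AURKB (0.12) changed sign with that scaling. With quantile normalization 6 genes were 1.5-fold apart, the median was 0.21, and BUB3 (0.094) and BIRC5 (0.16) changed sign and were called higher, while AURKB (0.056), HMMR (0.029), FOXM1 (0.044) and ASPM (0.052) changed sign without a call. With no filter 9 genes were called higher and 5 lower, in a fit that includes 25247 symbols. The share of all symbols called in that fit is not given, so these counts have no background beside them. Limma's treat test, which asks for more than 1.2-fold, called 5 higher (ANLN, TOP2A, MKI67, CDC25B and NUSAP1) and 3 lower (MAD1L1, MAD2L1 and PLK4), or 22.9% of the genes against 46.3% of all genes tested. The median was 0.085 with a pseudocount of 0.1 and 0.086 with symbols in 1 row naming 1 gene. Without either romidepsin library the median lay between 0.074 and 0.076 and 3 to 4 genes were 1.5-fold apart, with no test, since no residual degree of freedom is left. The cause of the scaling shift was not tested. With a mean of at least 5 FPKM, the calls of all 35 genes kept their direction and side of the threshold. No paired analysis was possible because there was a single control library. Depth and the single control limit what small differences can show.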

Other observations

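Ratios between transcripts of the same library do not depend on its scaling. Pairs of mitotic genes, not all of them binding partners, were read in this way after their values had been seen, with no test. Only some of the pairs computed are given. FPKM is per length, so the ratios compare levels. The ratio of MAD1L1 to MAD2L1, an anchor and its ligand, was 0.194 and 0.193 after romidepsin and 0.203 in the control. These lie close to each other, as follows from the similar falls of 1.60-fold and 1.53-fold given above. The ratio of CDC20 to MAD2L1, the target of the checkpoint and its captor, was 0.933 and 0.880 after romidepsin and 0.581 in the control. For BUB1 to MAD2L1 it was 0.389 and 0.386 after romidepsin and 0.239 in the control. BUB1 to BUB3 stood at 0.437 and 0.442 after romidepsin and 0.368 in the control. The joint row of BUB1B and PAK6 to BUB3 stood at 0.359 and 0.370 after romidepsin and 0.312 in the control. AURKB to INCENP stood at 1.74 and 1.52 after romidepsin and 1.88 in the control. Securin to separase transcripts (PTTG1 to ESPL1) stood at 10.3 and 10.4 after romidepsin and 10.01 in the control, and RACGAP1 to ECT2 at 1.62 and 1.67 after romidepsin and 1.68 in the control. NDC80 to NUF2, which form a dimer, stood at 0.615 and 0.581 after romidepsin and 0.454 in the control, and SPC25 to NUF2 at 0.981 and 0.977 after romidepsin and 0.766 in the control. AURKA to PLK1 was 0.637 and 0.689 after romidepsin and 0.470 in the control, and TPX2 to AURKA was 1.23 and 1.15 after romidepsin and 1.18 in the control. A ratio that differs shows unequal change of its 2 genes, not which of them changed.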
